A study of Oryza sativa with 9 samples.

Results

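The genes described here are 8 cyclins and 2 B-type cyclin-dependent kinases (CDKs) of rice, 10 genes of the 56143 in the deposited table. They are the B-type cyclins CYCB1-1 (LOC_Os01g59120), CYCB1-2 (LOC_Os01g17402), CYCB1-5 (LOC_Os05g41390), CYCB2-1 (LOC_Os04g47580) and CYCB2-2 (LOC_Os06g51110), the A-type cyclins CYCA1-1 (LOC_Os01g13260) and CYCA2-1 (LOC_Os12g31810), the D-type cyclin CYCD4-2 (LOC_Os08g37390), and the kinases CDKB1-1 (LOC_Os01g67160) and CDKB2-1 (LOC_Os08g40170). Most sources write these names with a semicolon (CYCB1;1), for which a hyphen is used here. The members were chosen by identifier, with their expression values in these 9 libraries already known, so each difference between the groups is given here as a description, without a p-value, and lends no independent support. All 10 genes passed the filter on low counts, as did 27251 genes in all. Their identifiers place 4 of them on chromosome 1, 2 on chromosome 8 and 1 each on chromosomes 4, 5, 6 and 12.

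The study sequenced the RNA of young panicles about 1 cm long from 2 osmads58 CRISPR, 4 osmads58 dSpm and 3 wild-type (WT) samples of the japonica cultivar Nipponbare, to ask how gene expression differs when the MADS box gene OsMADS58 is lost or lowered. The osmads58 CRISPR samples (1 and 2) come from independent transgenic lines with frameshift edits of OsMADS58 made with Cas9, and each pools panicles of several sterile, genotyped plants. The paper states that only a minority of the osmads58 CRISPR homozygotes were completely sterile and that such plants were used. This group was thus chosen by phenotype as well as by genotype. The osmads58 dSpm samples (1, 2, 4b and 5b) carry a dSpm transposon in the second intron, an allele that leaves some OsMADS58 RNA and a fertile plant. What the letter b marks is not given in the sources used here.

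Cyclins are the regulatory subunits that switch CDKs on, and their rise and destruction moves a cell through its cycle. D-type cyclins act in G1, A-type cyclins from S phase into early mitosis, and B-type cyclins in G2 and mitosis, after which the anaphase-promoting complex marks them for degradation. The B-type CDKs are found in plants and are made around G2 and mitosis, in contrast to the A-type CDK that is present throughout the cycle. In a young panicle these genes are used in the dividing cells of branch and floral meristems, of organ primordia and of the anther walls. CYCD4-2 is thus listed with mitotic genes although it belongs to the G1 class. In a whole panicle, a larger share of dividing cells and more RNA in each dividing cell cannot be told apart.

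The counts per library summed to between 65192657 and 83042245. OsMADS58 (LOC_Os05g11414) was at 0.270 and 0.471 CPM (counts per 1000000 counts of the library, scaled by edgeR's TMM factors) in the osmads58 CRISPR samples, 2.1, 0.719, 1.79 and 2.0 CPM in osmads58 dSpm 1, 2, 4b and 5b, and 8.38, 3.29 and 4.01 CPM in WT 1, 2 and 3. The mutant samples all lay below the WT samples. The gene fell in osmads58 CRISPR (log2 fold change -3.81 with a standard error of 0.67, adjusted p = 0.0153 with edgeR), whereas the value of -1.66 with a standard error of 0.47 in osmads58 dSpm was not called (adjusted p = 0.118). All 7 floral organ identity loci that were listed as markers of the panicle had counts in each of the libraries. Some libraries stood apart from their own group across the genes tested. WT 1 correlated with WT 2 and WT 3 at 0.944 and 0.946 in log2 CPM, whereas WT 2 and WT 3 correlated at 0.972. Among the osmads58 dSpm samples, 4b and 5b correlated at 0.981, and every other pair at 0.926 to 0.933. WT 1 and osmads58 dSpm 1 were also the lowest libraries for most of the genes below, so results are given with and without them.

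RT-qPCR primers of the study for CYCB1-5 and CYCD4-2 are shown because they mark transcripts that were also followed by a second method. They are written 5′ to 3′, and capitals mark the last 5 bases, from which the polymerase extends. All 4 are 20 bases long, with a GC content of 50% to 55%.
CYCB1-5 forward: aggtcgtgaacacgcTTACA
CYCB1-5 reverse: agctgggctgtcctgTAGAA
CYCD4-2 forward: ggcagggattggatgACACA
CYCD4-2 reverse: ccgtggttccccaatCTGAA

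All 10 genes were highest in the osmads58 CRISPR samples, where both libraries lay above all 7 others for every gene. This order held for 14.8% of all genes tested. For 9 of the 10, all except CYCA2-1, osmads58 dSpm 4b and 5b came next, above the 5 remaining libraries, an order seen in 4.06% of all genes tested. Summed over the 10 genes, the level was 514 and 528 CPM in osmads58 CRISPR 1 and 2, 102, 147, 289 and 255 CPM in osmads58 dSpm 1, 2, 4b and 5b, and 104, 141 and 150 CPM in WT 1, 2 and 3. Over all genes tested the highest library was a median of 3.09 times the lowest, and the ratio was over 10 for 26.2% of them and for 6 of the 10. The osmads58 dSpm line thus covered the WT levels and reached well beyond them, without touching those of osmads58 CRISPR.

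**Figure D1:**
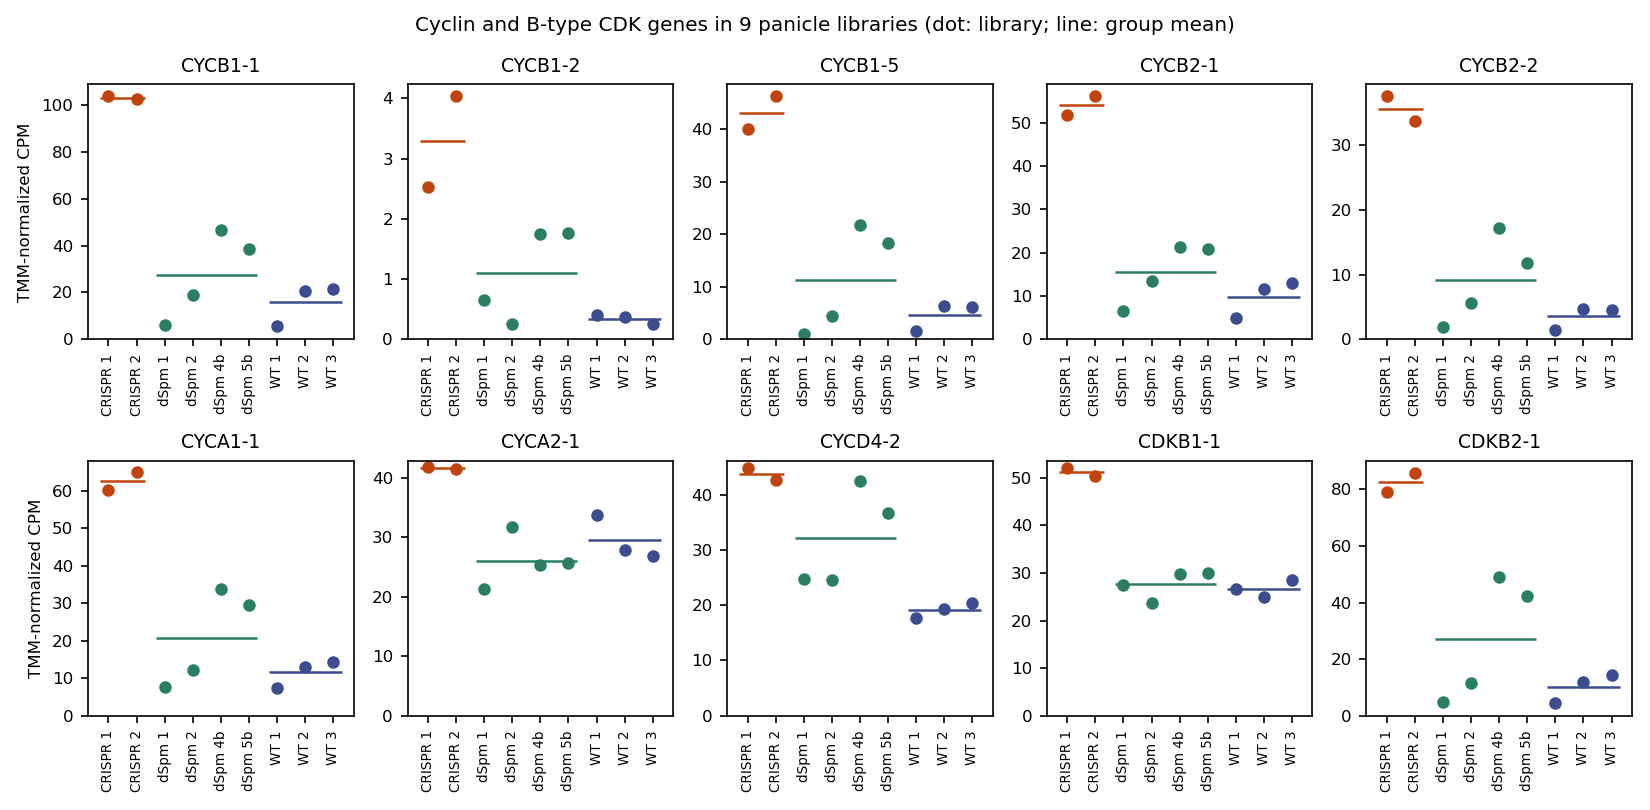
TMM-normalized CPM (linear vertical axis from 0) of each gene in each of the 9 libraries, with osmads58 CRISPR, osmads58 dSpm and WT libraries from left to right, where dots are libraries and lines are group means. For CYCB1-1 the osmads58 CRISPR dots lie at 104 and 102 CPM, and the highest other library, osmads58 dSpm 4b, at 46.6 CPM.

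Among the B-type cyclins, CYCB1-1, whose Arabidopsis namesake is widely used to mark cells in G2 and mitosis, was at 104 and 102 CPM in osmads58 CRISPR 1 and 2, 6.17, 18.9, 46.6 and 38.7 CPM in osmads58 dSpm 1, 2, 4b and 5b, and 5.43, 20.7 and 21.4 CPM in WT 1, 2 and 3. The osmads58 CRISPR libraries were close together, whereas osmads58 dSpm spanned a 7.55-fold range and WT a 3.95-fold range. CYCB1-5 was at 39.99 and 46.2 CPM in osmads58 CRISPR, 0.995, 4.46, 21.7 and 18.3 CPM in osmads58 dSpm, and 1.59, 6.31 and 6.12 CPM in WT. Its 21.8-fold range within osmads58 dSpm was the widest of the 10 genes in that line, against a median of 2.03-fold over all genes tested. CYCB1-2 had few reads, with 2.53 and 4.04 CPM in osmads58 CRISPR, 0.659, 0.260, 1.75 and 1.76 CPM in osmads58 dSpm, and 0.398, 0.376 and 0.255 CPM in WT. This corresponded to 188 and 360 counts in osmads58 CRISPR, 17 to 140 counts in osmads58 dSpm and 20 to 29 counts in WT. Unlike the other B-type cyclins, it was not lowest in WT 1 and osmads58 dSpm 1.

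The CYCB2 pair, B-type cyclins of a separate subclass, followed the same order. CYCB2-1 was at 51.9 and 56.3 CPM in osmads58 CRISPR, 6.56, 13.4, 21.4 and 20.8 CPM in osmads58 dSpm, and 4.86, 11.7 and 12.9 CPM in WT. CYCB2-2 was at 37.6 and 33.7 CPM in osmads58 CRISPR, 1.88, 5.63, 17.2 and 11.8 CPM in osmads58 dSpm, and 1.45, 4.68 and 4.55 CPM in WT. In both genes osmads58 dSpm 1 and WT 1 were the lowest pair. The level of osmads58 dSpm 1 lay within the WT range, and that of osmads58 dSpm 2 a little above it.

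The A-type cyclins differed from each other. CYCA1-1 was at 60.1 and 65.02 CPM in osmads58 CRISPR, 7.55, 12.3, 33.9 and 29.5 CPM in osmads58 dSpm, and 7.48, 13.1 and 14.3 CPM in WT, and so had the library order of the B-type cyclins. CYCA2-1, of the class that in Arabidopsis partners CDKB1-1 and restrains endoreduplication, was at 41.7 and 41.4 CPM in osmads58 CRISPR, 21.29, 31.7, 25.2 and 25.7 CPM in osmads58 dSpm, and 33.6, 27.9 and 26.9 CPM in WT. Here WT 1 was the highest WT library and osmads58 dSpm 2 the highest of its line. The highest library of CYCA2-1 was 1.96 times the lowest, the smallest range of the 10 genes, while the ratio was 8.69 for CYCA1-1.

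CYCD4-2, the D-type cyclin, was at 44.7 and 42.7 CPM in osmads58 CRISPR, 24.7, 24.6, 42.5 and 36.7 CPM in osmads58 dSpm, and 17.7, 19.3 and 20.4 CPM in WT. It was the only gene of the 10 for which every osmads58 dSpm library lay above every WT library, as 8.69% of all genes tested did. It was also the gene for which osmads58 dSpm 4b came nearest to the osmads58 CRISPR libraries, at 42.5 CPM beside 42.7 CPM in osmads58 CRISPR 2.

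The B-type CDKs were unlike each other. CDKB2-1 was at 78.9 and 86.0 CPM in osmads58 CRISPR, 4.96, 11.6, 49.1 and 42.2 CPM in osmads58 dSpm, and 4.54, 11.8 and 14.3 CPM in WT. It spanned an 18.9-fold range over the libraries and a 9.90-fold range within osmads58 dSpm. CDKB1-1 was at 52.1 and 50.3 CPM in osmads58 CRISPR, 27.4, 23.8, 29.7 and 30.1 CPM in osmads58 dSpm, and 26.7, 24.9 and 28.5 CPM in WT. Apart from the osmads58 CRISPR libraries, CDKB1-1 varied little, and its osmads58 dSpm and WT levels overlapped.

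In osmads58 CRISPR against WT, all 10 genes had a positive log2 fold change, from 0.50 to 3.32 with a median of 2.58, beside a median of 0.00 over all genes tested. A gene was called when its adjusted p (Benjamini-Hochberg, edgeR's quasi-likelihood test over all genes) was under 0.05 and its absolute log2 fold change over 1. By this rule 5 of the 10 rose, namely CYCB1-2, CYCB2-1, CYCB2-2, CYCA1-1 and CYCD4-2, where 2.04% of all genes tested were called higher. None was called lower, and 1512 of the 27251 genes tested were called in either direction. Both osmads58 CRISPR libraries lay above all WT libraries for 10 of the 10 genes and for 29.0% of all genes tested. Since the genes were listed with these values known, nothing is read from either count.

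CYCB2-2 had the largest value, with a mean of 35.7 ± 2.75 CPM in osmads58 CRISPR (SD, n = 2) and 3.56 ± 1.83 CPM in WT (SD, n = 3). The log2 fold change was 3.32, with a standard error of 0.78, and errors after ± are standard errors for log2 fold changes throughout. CYCB1-2 rose by 3.26 ± 0.76, CYCB2-1 by 2.46 ± 0.51, CYCA1-1 by 2.43 ± 0.56 and CYCD4-2 by 1.19 ± 0.25 on the log2 scale. Of the 5 genes that were not called, CYCB1-5 (3.21 ± 1.02), CDKB2-1 (3.01 ± 0.84) and CYCB1-1 (2.70 ± 0.76) exceeded the fold limit, but their adjusted p was not under 0.05. CDKB1-1 (0.94 ± 0.17) and CYCA2-1 (0.50 ± 0.20) were under the fold limit. CYCB1-1, for example, averaged 103 ± 0.939 CPM in osmads58 CRISPR (SD, n = 2) and 15.8 ± 9.02 CPM in WT (SD, n = 3).

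Both osmads58 CRISPR libraries lay above all others for every gene, so leaving a library out could hardly change a direction. The number of calls in osmads58 CRISPR against WT rested on single libraries. It was 0 without osmads58 CRISPR 1, osmads58 CRISPR 2, WT 1, WT 2 or WT 3, 4 when osmads58 dSpm 5b was left out and 8 when osmads58 dSpm 1 was. In the 5 fits with 0 calls, 9 or 10 of the 10 genes had an unadjusted p under 0.05, as did 13.1% to 23.0% of all genes tested, and 31 to 775 genes were called over the whole table, against 1512 with all libraries. With WT 1 and osmads58 dSpm 1 both left out, or with DESeq2, 8 genes were called, CDKB1-1 and CYCA2-1 being the exceptions. The share of all genes tested called higher was then 3.95% without both libraries and 4.81% with DESeq2. It was 4.39% without osmads58 dSpm 1 alone and 1.40% without osmads58 dSpm 5b. As the genes were listed with these values known, none of these counts is a test of them.

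**Figure D2:**
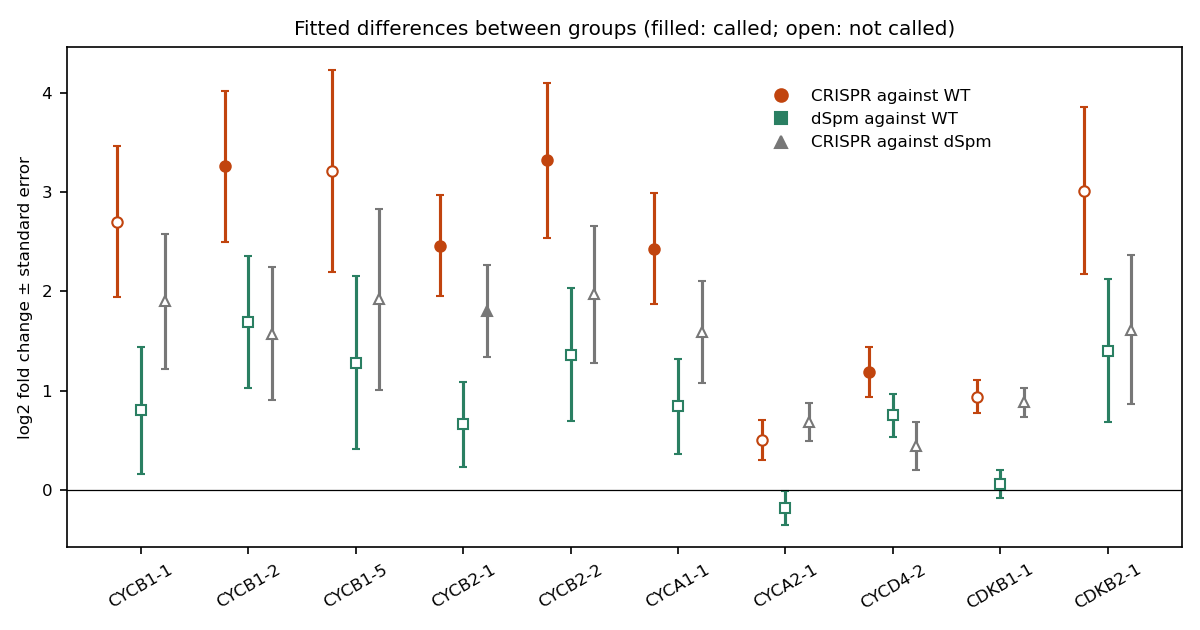
Fitted log2 fold change (vertical axis) of each gene in osmads58 CRISPR against WT (circles), osmads58 dSpm against WT (squares) and osmads58 CRISPR against osmads58 dSpm (triangles), where bars are standard errors, and filled symbols were called. The circles of CYCB2-2 (3.32) and CYCB1-2 (3.26) are highest, and the square of CYCA2-1 (-0.18) is the only symbol below 0.

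In osmads58 dSpm against WT, 0 of the 10 genes were called, where 1.18% of all genes tested were called higher. DESeq2 also called 0, and 2 of the 10 had an unadjusted p under 0.05 with edgeR, as did 16.6% of all genes tested. The log2 fold changes ran from -0.18 ± 0.17 for CYCA2-1 to 1.69 ± 0.66 for CYCB1-2, with a median of 0.82 beside 0.06 over all genes tested. CDKB1-1 was at 0.06 ± 0.14, with 27.7 ± 2.89 CPM in osmads58 dSpm (SD, n = 4) and 26.7 ± 1.81 CPM in WT (SD, n = 3). CYCD4-2 was at 0.75 ± 0.22, with 32.2 ± 8.95 CPM in osmads58 dSpm and 19.1 ± 1.35 CPM in WT.

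The osmads58 dSpm libraries differed among themselves. Samples 4b and 5b lay above all WT libraries for 9 of the 10 genes, as they did for 30.5% of all genes tested, whereas samples 1 and 2 did so for CYCD4-2 alone, against 14.1% of all genes tested. With 4b and 5b as the only osmads58 dSpm libraries, 6 genes were called higher than in WT (CYCB1-2, CYCB1-5, CYCB2-2, CYCA1-1, CYCD4-2 and CDKB2-1), as were 4.54% of all genes tested in that fit, and the median log2 fold change of the 10 was 1.40. With 1 and 2 only, 0 were called, 0 had an unadjusted p under 0.05 (12.9% of all genes tested had), and the median was -0.13. These subsets were set with earlier results of the data known, and they describe the libraries rather than test the line.

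In osmads58 CRISPR against osmads58 dSpm, all 10 log2 fold changes were positive, from 0.44 ± 0.24 for CYCD4-2 to 1.97 ± 0.69 for CYCB2-2, with a median of 1.60 beside -0.05 over all genes tested. The osmads58 CRISPR libraries lay above every osmads58 dSpm library for 10 of the 10 genes and for 19.7% of all genes tested. CYCB2-1 alone was called, at 54.1 ± 3.10 CPM in osmads58 CRISPR (SD, n = 2) and 15.5 ± 6.99 CPM in osmads58 dSpm (SD, n = 4). Its log2 fold change was 1.80 ± 0.46, where 1.44% of all genes tested were called higher. This call was lost without osmads58 CRISPR 1 or 2, osmads58 dSpm 2, 4b or 5b, and WT 2 or 3, and 3 genes were called (CYCB1-1, CYCB2-1 and CYCB2-2) without WT 1 and osmads58 dSpm 1 together, where 2.83% of all genes tested were called higher. CDKB1-1 differed by 0.88 ± 0.15 and CYCA2-1 by 0.68 ± 0.19, both under the fold limit. Both comparisons with WT share its libraries, so their values are given side by side and not as independent results.

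Each gene's log2 CPM was standardised over the 9 libraries to compare patterns regardless of level. The average over the 10 genes was 1.32 and 1.37 in the osmads58 CRISPR samples, -1.02, -0.45, 0.45 and 0.33 in osmads58 dSpm 1, 2, 4b and 5b, and -1.01, -0.52 and -0.47 in WT 1, 2 and 3. CYCA1-1 lay closest to this average (Pearson r = 0.995 over 9 libraries) and CYCA2-1 farthest (r = 0.626).

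**Figure D3:**
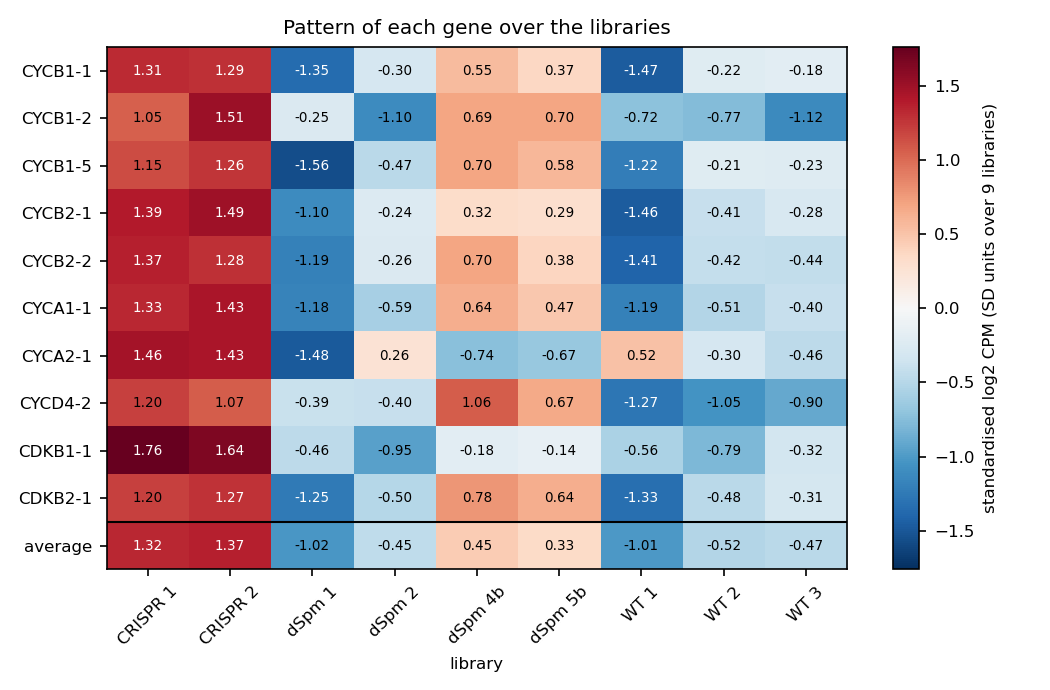
Standardised log2 CPM (SD units over the 9 libraries, colour and printed value) of each gene (rows) and their average (bottom row) in each library (columns). Both osmads58 CRISPR columns are above 1 in every row, and CYCA2-1 is the only gene above 0 in WT 1 (0.52).

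CYCB1-1, CYCB1-5, CYCB2-1, CYCB2-2, CYCA1-1 and CDKB2-1 shared a narrow pattern. They were grouped after their values were seen, by having osmads58 dSpm 1 and WT 1 as their lowest pair, as 13.3% of all genes tested had. Their 15 pairs had Pearson correlations of 0.956 to 0.992 over the 9 libraries and of 0.941 to 0.998 over the 7 libraries without osmads58 CRISPR. The 30 pairs that involve CYCB1-2, CYCA2-1, CYCD4-2 or CDKB1-1 ran from 0.324 to 0.918 over 9 libraries and from -0.527 to 0.876 over 7. All points share the same libraries and scaling factors, so the values are descriptions.

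Ratios between genes of the same library do not depend on depth or scaling. The ratio of CDKB2-1 to CDKB1-1 counts was 1.51 and 1.71 in the osmads58 CRISPR samples, 0.181, 0.489, 1.65 and 1.40 in osmads58 dSpm 1, 2, 4b and 5b, and 0.170, 0.476 and 0.503 in WT. By this ratio osmads58 dSpm 4b and 5b were at the level of osmads58 CRISPR, and osmads58 dSpm 1 and 2 at that of WT. The ratio of CYCA1-1 to CYCA2-1 gave the same grouping, with 1.44 and 1.57 in the osmads58 CRISPR samples, 0.355, 0.388, 1.34 and 1.15 in osmads58 dSpm, and 0.222, 0.470 and 0.534 in WT. The ratio of CYCB1-1 to CYCD4-2 did not, with 2.32 and 2.40 in the osmads58 CRISPR samples, 0.250, 0.765, 1.10 and 1.05 in osmads58 dSpm, and 0.307, 1.07 and 1.05 in WT. Here osmads58 dSpm 4b and 5b were at the level of WT 2 and 3. The ratios compare libraries and not the amounts of the genes, since the counts are not scaled by length.

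**Figure D4:**
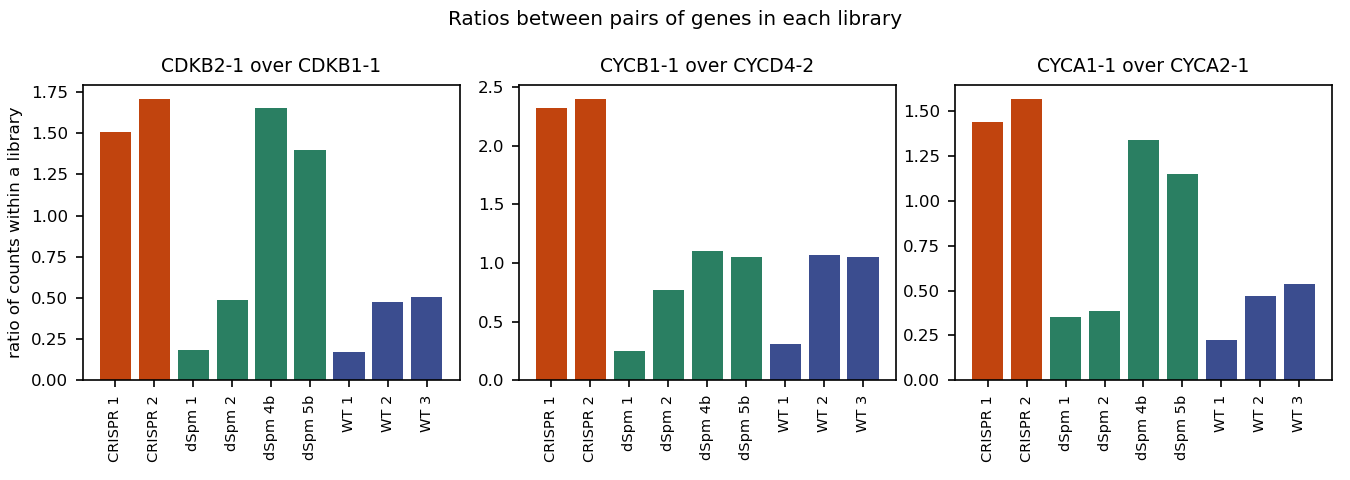
Ratio of the deposited counts of each named pair of genes (vertical axes from 0) in each of the 9 libraries, with osmads58 CRISPR, osmads58 dSpm and WT libraries from left to right. In the first panel osmads58 dSpm 4b (1.65) and 5b (1.40) are near osmads58 CRISPR (1.51 and 1.71), and in the second they are near WT 2 and 3.

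The shares of single genes in the summed CPM of the 10 differed between libraries. CYCB1-1 took 20.2% and 19.4% in the osmads58 CRISPR samples, 6.03%, 12.9%, 16.1% and 15.1% in osmads58 dSpm, and 5.24%, 14.7% and 14.3% in WT. CYCA2-1 took 8.13% and 7.84% in the osmads58 CRISPR samples, 20.8%, 21.6%, 8.73% and 10.05% in osmads58 dSpm, and 32.4%, 19.8% and 17.9% in WT. The share of CYCB1-1 was highest, and that of CYCA2-1 lowest, in osmads58 CRISPR, where the sum was highest.

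Other genes of the cell cycle were read from lists of the study. Its cell cycle list holds 18 genes, of which 4 are described above. Of the 14 others, 3 rose and 2 fell in osmads58 CRISPR against WT, with a median log2 fold change of 1.96. Among all 27251 genes tested, 1512 were called in either direction in that comparison, and 2.04% were called higher. DESeq2 called 10 of the 14 higher and 4 lower there, beside 4.81% of all genes tested called higher and 3188 called in either direction. All 14 had an unadjusted p under 0.05 with edgeR, as did 25.7% of all genes tested. In osmads58 dSpm against WT 0 were called with edgeR and 2 with DESeq2, which called 3.63% of all genes tested higher. With edgeR 7 had an unadjusted p under 0.05, as did 16.6% of all genes tested. In osmads58 CRISPR against osmads58 dSpm 1 rose and 1 fell, where 1.44% of all genes tested were called higher and 1462 genes in either direction. The study drew this list from genes that changed in these samples, so the counts are not independent evidence of a direction. LOC_Os01g36390 with 20.2 and 26.7 CPM in osmads58 CRISPR, 1.85, 3.79, 23.9 and 15.8 CPM in osmads58 dSpm, and 1.22, 2.77 and 1.90 CPM in WT rose by 3.58 ± 0.90 on the log2 scale in osmads58 CRISPR against WT. Its osmads58 dSpm 4b level lay within the range of osmads58 CRISPR, unlike the levels of the cyclins. LOC_Os03g01740 fell by 1.53 ± 0.34 on the log2 scale, with 78.9 and 64.7 CPM in osmads58 CRISPR, 261, 293, 141 and 164 CPM in osmads58 dSpm, and 263, 177 and 181 CPM in WT.

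A second list, put together here for DNA replication and the A-type CDKs, holds 9 loci, 5 of them also in the cell cycle list. In osmads58 CRISPR against WT 2 of the 9 rose, LOC_Os01g36390 and LOC_Os02g56130, 0 fell, and the median log2 fold change was 2.40. The share called higher among all genes tested was 2.04%. DESeq2 called 7 of the 9 higher and 0 lower in that comparison, beside 4.81% of all genes tested called higher. An unadjusted p under 0.05 with edgeR was found for 8 of the 9 and for 25.7% of all genes tested. LOC_Os02g56130 was at 44.7 and 48.5 CPM in osmads58 CRISPR, 18.5, 16.1, 40.6 and 33.5 CPM in osmads58 dSpm, and 16.2, 16.4 and 17.1 CPM in WT, with WT within a narrow range. In osmads58 dSpm against WT edgeR called 0 and DESeq2 called 1, and DESeq2 called 3.63% of all genes tested higher. With edgeR 5 had an unadjusted p under 0.05, as did 16.6% of all genes tested. Their summed level was 282 and 323 CPM in osmads58 CRISPR, 85.8, 106, 265 and 210 CPM in osmads58 dSpm 1, 2, 4b and 5b, and 118, 113 and 131 CPM in WT. The libraries that were high for the sum of the 10 genes were thus high for this sum as well.

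The study's meiosis list holds 27 genes, of which 7 are cyclins described above, since its categories overlap. Of the 20 others, 7 rose and 3 fell in osmads58 CRISPR against WT. Over the 27251 genes tested, 1512 were called in either direction and 2.04% were called higher. DESeq2 called 15 of the 20 higher and 5 lower there, beside 4.81% of all genes tested called higher and 3188 called in either direction. All 20 had an unadjusted p under 0.05 with edgeR, as did 25.7% of all genes tested. In osmads58 dSpm against WT 0 were called by edgeR and 0 by DESeq2. With edgeR 4 had an unadjusted p under 0.05, as did 16.6% of all genes tested. The libraries' order varied within this list. LOC_Os09g36740 was at 31.6 and 34.7 CPM in osmads58 CRISPR, 2.76, 4.36, 19.7 and 13.5 CPM in osmads58 dSpm, and 1.36, 3.95 and 4.57 CPM in WT, an order like that of the B-type cyclins. LOC_Os04g41110 fell by 2.81 ± 0.29 on the log2 scale and had 61.9 and 59.9 CPM in osmads58 CRISPR, against 561, 357 and 360 CPM in WT. This list too was drawn from genes that changed in these samples.

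Among 28 genes that the study names for meiosis, 1 rose and 1 fell in osmads58 CRISPR against WT, with a median log2 fold change of 0.00. In the same comparison 2.04% of all 27251 genes tested were called higher, and 1512 were called in either direction. DESeq2 called 2 of the 28 higher and 2 lower there, beside 4.81% of all genes tested called higher and 3188 called in either direction. SDS (LOC_Os03g12414), a cyclin-like protein of meiosis, was at 5.36 and 7.95 CPM in osmads58 CRISPR, 8.49, 8.42, 8.29 and 6.79 CPM in osmads58 dSpm, and 8.63, 7.18 and 8.62 CPM in WT. The groups overlapped, and its log2 fold change of -0.29 ± 0.25 in osmads58 CRISPR against WT was not called (adjusted p = 0.514 with edgeR).

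Markers of other cells were set beside these levels. The 5 meiocyte markers summed to 107 and 151 CPM in osmads58 CRISPR, 93.2, 97.9, 357 and 377 CPM in osmads58 dSpm 1, 2, 4b and 5b, and 167, 174 and 183 CPM in WT, and this sum was highest in osmads58 dSpm 4b and 5b. MEL1, at a mean of 130 CPM, made up most of it, and the markers did not move together. Between osmads58 CRISPR and osmads58 dSpm the log2 fold change was -1.42 ± 0.73 for MEL1, -1.27 ± 0.94 for MEL2, 0.07 ± 0.21 for PAIR2, 1.46 ± 0.99 for PAIR1 and 1.15 ± 0.37 for ZEP1, none of them called. ZEP1, a protein of the synaptonemal complex, rose by 1.52 ± 0.40 in osmads58 CRISPR against WT, where 2.04% of all genes tested were called higher. The other 4 were not called, at 3.34 ± 1.12 for PAIR1, 0.36 ± 0.22 for PAIR2, -0.39 ± 0.95 for MEL2 and -1.01 ± 0.75 for MEL1. PAIR1 had a mean of 1.49 CPM, and its adjusted p was not under 0.05. DESeq2 called 2 of the 5 higher in that comparison, beside 4.81% of all genes tested. The 9 chloroplast genes summed to 152 and 125 CPM in osmads58 CRISPR, 144, 107, 122 and 120 CPM in osmads58 dSpm, and 97.5, 106 and 102 CPM in WT, with 1 of the 9 at 0 in all libraries. The 7 floral organ identity loci summed to 218 and 249 CPM in osmads58 CRISPR, 564, 257, 651 and 607 CPM in osmads58 dSpm, and 838, 343 and 335 CPM in WT. OsMADS1, at a mean of 290 CPM, was the largest part of this sum. Here WT 1 was the highest library, followed by osmads58 dSpm 4b and 5b. The sum of the 10 genes was lowest in osmads58 dSpm 1 and WT 1. That sum was highest in osmads58 CRISPR, followed by osmads58 dSpm 4b and 5b. The part of any of these cell types, or of the stage of the panicles, in the levels of the cyclins was not tested.

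The genes outside the list whose pattern was most like the average of the 10 were LOC_Os05g38480 (Pearson r = 0.993 over the 9 libraries) and LOC_Os06g14080 (r = 0.992). Of 27241 other genes tested, 811 (2.98%) reached a correlation of at least 0.9. LOC_Os05g38480 was at 103 and 99.7 CPM in osmads58 CRISPR, 48.1, 51.4, 74.0 and 70.6 CPM in osmads58 dSpm, and 47.4, 55.9 and 55.7 CPM in WT. The likeness is in the relative pattern over the libraries and not in the size of the differences. The highest library of this gene was 2.17 times its lowest. Among the 10 genes this ratio ran from 1.96 for CYCA2-1 to 46.5 for CYCB1-5.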

How the data were processed

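RNA-seq was done on young panicles in 9 libraries. According to the sources, paired-end reads were mapped with HISAT2 2.1.0 to MSU v7.0, the reference of rice, and StringTie 1.3.3b gave the levels of the genes. The authors deposited estimated counts per gene, unscaled and already whole, so rounding changed none. How coverage became counts is not given in the sources used here. Of the counts from 1 to 40, 37.2% to 40.7% in each library were multiples of 4, where an even spread gives 25%, and small counts are therefore coarse. The 9 columns were matched to samples by title.

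The analysis used edgeR 4.0.16 in R 4.3.3 (filterByExpr, TMM, glmQLFit and glmQLFTest), with 27251 genes and 3 groups in one fit. A gene was called at an adjusted p under 0.05 if its log2 fold change also exceeded 1 in size. A standard error is the log2 fold change divided by the square root of F. For log2 CPM the prior count was 2. The procedure was tested on simulated data in which 200 genes were changed in both mutant groups. At a log2 change of 2 it called 143 of them in osmads58 CRISPR against WT and 166 in osmads58 dSpm against WT. At a log2 change of 3 it called 171 and 185, and false calls ran from 2 to 10. Apart from depth, the simulated libraries of a group shared their expected levels, so deviations of single libraries like those seen here were not simulated. Each p-value weighs a difference between groups against the spread between libraries, estimated over all groups in the fit together. Alternatives were DESeq2 1.42.0, RLE factors, no filter, the compared groups alone, a block for the replicate number, subsets of libraries and counts divided by 4.

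The members, lists and alternatives were chosen with earlier results of these data known. Named genes were the 10 members, OsMADS58, SDS, the 2 genes with the most similar pattern, and in each list up to 2 called genes per comparison with the largest change and a mean of at least 10 CPM. Some items that this rule or the primer list would include are not reported here. ZEP1 falls outside this rule and was named after its values were seen. Of 56143 identifiers, 0 matched the RefSeq gene table, so positions, lengths, promoters and proteins were not analysed here.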

Additional observations from a re-analysis of the deposited data

Results flagged for a closer look

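CYCB2-1 was singled out because the difference between the mutant lines passed the call rule, osmads58 CRISPR against osmads58 dSpm giving a log2 fold change of 1.80. Its levels were 51.9 and 56.3 CPM in osmads58 CRISPR, against 6.56, 13.4, 21.4 and 20.8 CPM in osmads58 dSpm. The gene was listed with these values known, so this is a description.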

How the results depend on the processing

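All 10 genes kept a positive log2 fold change in osmads58 CRISPR against WT and against osmads58 dSpm under each of the 18 alternatives. With both osmads58 CRISPR libraries above all others for each gene, leaving libraries out could hardly change these signs. In osmads58 dSpm against WT, 7 of the 10 changed sign under at least 1 alternative, and no value with a changed sign was called. In osmads58 CRISPR against WT, 8 genes were called with DESeq2, with the 2 groups only and with the replicate block. The same number was called without WT 1 and dSpm 1, with dSpm 1 and 2 only, and with dSpm 4b and 5b only. Over these fits, 2.81% to 5.81% of all genes tested were called higher. The number ranged from 0 to 8 when 1 osmads58 dSpm or WT library was left out, beside 0.543% to 4.39% of all genes tested. The median ranged from 2.24 to 2.85 with 1 library left out and was 2.98 with the replicate block. In osmads58 dSpm against WT, 0 genes were called when 1 osmads58 dSpm or WT library was left out, with medians of 0.51 to 1.12. The share of all genes tested called higher was 0.192% to 1.84% in these fits. With dSpm 4b and 5b only, 6 were called, where 4.54% of all genes tested were called higher, and with dSpm 1 and 2 only the median was -0.13.

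In osmads58 CRISPR against osmads58 dSpm, 4 genes were called with DESeq2, 0 with the 2 groups only, 7 with the replicate block, 3 without WT 1 and dSpm 1, 8 with dSpm 1 and 2 only, 0 with dSpm 4b and 5b only, and 0 to 1 with 1 library left out. In the fits with 3 to 8 calls, 2.76% to 4.02% of all genes tested were called higher. That share was 1.44% in the fit with none of these alternatives, so calls rose over the whole table as well. Where 0 were called, 6 (the 2 groups only) and 5 (dSpm 4b and 5b only) had an unadjusted p under 0.05. The same held for 22.9% and 29.7% of all genes tested. The median was 2.80 with the replicate block, 2.78 with dSpm 1 and 2 only, 0.96 with dSpm 4b and 5b only, and 1.35 to 2.0 with 1 library left out. Over all genes tested, 1512, 394 and 1462 genes were called in osmads58 CRISPR against WT, osmads58 dSpm against WT and osmads58 CRISPR against osmads58 dSpm, and the alternatives gave 31 to 3469, 65 to 2491 and 78 to 2850. The lines share only a number with WT, in 2 pairs each. Across genes, deviations from the group mean in same-numbered libraries of osmads58 dSpm and WT correlated at 0.31 for number 1 and 0.13 for number 2. Those of osmads58 CRISPR and WT correlated at -0.02 and -0.02. Libraries with unlike numbers were not compared, so these values cannot show that the number marks anything shared. With the block, osmads58 dSpm 4b and 5b and WT 3 carry no weight in the comparisons. A fit without 1 osmads58 CRISPR library assumes that the other varies like the remaining groups. The cause of these changes was not tested.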

Other observations

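Ratios within the cyclin subclasses also differed between the libraries. The counts of CYCB1-1 over those of CYCB1-5 were 2.59 and 2.22 in the osmads58 CRISPR samples, 6.20, 4.22, 2.15 and 2.11 in osmads58 dSpm 1, 2, 4b and 5b, and 3.41, 3.28 and 3.51 in WT. The counts of CYCB2-1 over those of CYCB2-2 were 1.38 and 1.67 in the osmads58 CRISPR samples, 3.49, 2.39, 1.25 and 1.76 in osmads58 dSpm, and 3.34, 2.49 and 2.84 in WT. In both ratios osmads58 dSpm 4b and 5b lay below osmads58 dSpm 1 and 2 and below WT. The counts of CYCB1-1 over those of CDKB2-1 varied less, from 0.916 in osmads58 dSpm 5b to 1.74 in WT 2.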
